A study of Mus musculus with 8 samples.

Results

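The genes described here are 34 genes of fatty acid oxidation and of the response to peroxisome proliferator-activated receptors (PPARs), taken by symbol from the 37310 genes of a table of RNA sequencing counts. They comprise 28 core enzymes and carriers of oxidation and 6 targets known to be induced by fasting. The cells were alveolar macrophages, which live in the air spaces of the lung and take up particles and surfactant, and the question behind the comparisons was what culture outside the lung, and a return to the lung, did to their transcripts. Expanded cells returned to a lung (texAM) were C57BL/6 alveolar macrophages that had been expanded in culture, given into the trachea of C57Bl/6-Ly5.1 mice and sorted from whole lung 4 months after transfer as SiglecF+, CD11c+ and CD45.2+ cells. Cultured cells (exAM) were C57BL/6 alveolar macrophages after 2 months of culture and were not sorted. Transplanted cells without culture (tAM) were of the C57BL/6 strain and were sorted by the same markers after the same 4 months. Host cells (HostAM) were resident cells of C57Bl/6-Ly5.1 mice, sorted as SiglecF+, CD11c+ and CD45.1+, and whether those mice had received cells or saline is not stated for these libraries. Donors and recipients were wild-type mice 8 weeks old. Each group had 2 libraries, each from a pool of 3 mice or cultures, so that p-values measure the spread between pools only.

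Fatty acids are burned in a fixed order. They are joined to coenzyme A, handed to carnitine and carried into the mitochondrion, where a dehydrogenase, a hydratase, a second dehydrogenase and a thiolase shorten the chain in repeated turns and pass electrons to the respiratory chain, while very long chains are first shortened in peroxisomes. PPARs are nuclear receptors that bind fatty acids and act on DNA as partners of RXR, and in fasted liver, heart and muscle they raise both the enzymes of the chain and a set of fuel-switching genes such as Pdk4 and Angptl4. In alveolar macrophages, which clear the lipids of surfactant, PPAR gamma is known as a factor that sets the identity of the cell.

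The 8 libraries held 6546272 to 9154128 counts, and all 34 genes passed the filter on low counts. Levels are given as CPM, the count of a gene relative to its library size after TMM scaling, and changes as log2 fold changes with their standard error. A gene was called when its adjusted p, from edgeR's quasi-likelihood test with Benjamini-Hochberg adjustment over 14537 tested genes, was under 0.05. All 15 marker genes of alveolar macrophages had counts in every library. Their summed level was 4565 and 4989 CPM in texAM, 6015 to 7056 CPM in exAM, 5123 and 5301 CPM in tAM, and 4800 and 4964 CPM in HostAM. The sum hides differences, as 8 of these markers were called higher and 2 lower in exAM than in tAM. Of all tested genes 21.5% were called higher and 23.2% lower. The log2 fold changes of the markers ran from -6.85 to 1.10. Of 14 epithelial markers, 9 and 12 were at 0 in the exAM libraries. The list summed to 670 and 800 CPM in texAM, 378 and 430 CPM in exAM, 711 and 736 CPM in tAM and 810 and 884 CPM in HostAM. In exAM replicate 2 the sum came from Scgb1a1 and Cdh1 alone. Of the 14 markers, 1 was called higher and 12 lower in exAM than in tAM, beside 21.5% and 23.2% of all tested genes. Markers of T and NK cells summed to 184 and 239 CPM in texAM, 3.77 and 5.71 CPM in exAM, 59.8 and 122 CPM in tAM and 24.7 and 81.6 CPM in HostAM. Some other lists summed lower in exAM as well. Red cell markers had 0.154 and 1.03 CPM in exAM, against 60.8 to 148 CPM in the 6 lung libraries. Those of dendritic cells had 58.1 and 77.3 CPM, against 121 to 229 CPM. Those of B cells had 0.154 and 1.54 CPM, against 5.46 to 27.4 CPM. Markers of endothelium and stroma were not lower as a sum, with 268 and 287 CPM in exAM against 248 to 335 CPM in lung. Of 6 tested, 3 were called higher and 0 lower in exAM than in tAM, where 21.5% and 23.2% of all tested genes were. Proliferation markers summed to 1328 and 1174 CPM in exAM, against 995 to 1127 CPM in lung. Neutrophil markers summed to 157 and 205 CPM in exAM, against 141 to 317 CPM in lung, where their member Csf3r had 0.343 and 1.85 CPM in exAM, against 80.2 to 139 CPM. Another of them, S100a9, had 25.8 and 64.6 CPM in texAM and 7.02 and 8.36 CPM in tAM. The 8 fat markers summed to 4.12 and 4.94 CPM in exAM, against 11.8 to 23 CPM in lung. Adipoq, Lep, Cidea and Adrb3 were at 0 in all 8 libraries, and Pnpla3 was called lower in exAM than in tAM. The 10 markers of striated muscle summed to 6.69 and 8.18 CPM in exAM, against 7.02 to 23.6 CPM in lung, mostly from Ttn, and Myh6 and Mb were at 0 in all 8 libraries. Counts of the Y-linked gene Ddx3y were 55 and 59 in exAM and 0 in each of the 6 lung libraries, so sex and culture cannot be told apart between exAM and the other groups. The part of other cells and of sex in the results was not tested.

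The letters before the start of 3 genes with some of the largest changes are shown first, because PPARs and RXR are known to read the letters AGGTCA, best as a pair of copies with 1 base between them. The windows come from RefSeq (GRCm38.p6), in which 29 of the 34 genes were found and Crat, Acaa2, Decr1, Hsd17b4 and Angptl4 were not. Capitals mark AGGTCA, searched on both strands. The windows are Ucp3 on the plus strand at chr7:100472741-100472989, Pdk4 on the minus strand at chr6:5496310-5496528 and Acsl4 on the minus strand at chrX:142390536-142390785, each read 5′ to 3′ toward the gene.
Ucp3: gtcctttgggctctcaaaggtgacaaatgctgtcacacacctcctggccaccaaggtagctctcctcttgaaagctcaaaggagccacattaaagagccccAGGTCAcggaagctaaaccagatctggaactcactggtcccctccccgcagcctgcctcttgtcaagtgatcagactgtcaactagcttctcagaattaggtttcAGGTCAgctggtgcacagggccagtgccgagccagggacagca
Pdk4: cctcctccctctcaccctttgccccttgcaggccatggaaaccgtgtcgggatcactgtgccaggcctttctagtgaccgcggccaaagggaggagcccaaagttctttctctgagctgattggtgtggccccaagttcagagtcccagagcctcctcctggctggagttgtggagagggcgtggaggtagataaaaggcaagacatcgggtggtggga
Acsl4: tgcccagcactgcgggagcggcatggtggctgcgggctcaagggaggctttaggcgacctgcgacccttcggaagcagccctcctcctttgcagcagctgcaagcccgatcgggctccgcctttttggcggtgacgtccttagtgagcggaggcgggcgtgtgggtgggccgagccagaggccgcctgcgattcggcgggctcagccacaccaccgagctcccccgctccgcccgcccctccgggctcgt
Ucp3 held AGGTCA 2 times, with the last base 144 and 39 bases before the RefSeq start, and the other 2 windows held none. The printed windows are cut where the annotated gene begins. Over the full 250 bases before each RefSeq start, 5 of 30 windows of these genes held AGGTCA on either strand (16.7%), against 14% of all 32851 windows of the table. The paired form AGGTCANAGGTCA was in 0 of the 30 windows and in 11 of all windows (0.0335%). Exact pairs are so rare that 0 of 30 windows says little about these genes. Inexact copies and sites beyond the 250 bases were not searched.

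The largest differences between cultured cells and cells in lung lay in some fasting-type targets and a few core genes. Against tAM, exAM had 7 of the 34 genes called higher and 12 called lower. Pdk4, Ucp3, Acss1, Acot1, Decr1, Acadvl and Eci1 were lower by more than 1 on the log2 scale, and Acsl4 and Etfdh were higher by more than 1. Of all tested genes 44.7% were called in this comparison, 21.5% higher and 23.2% lower. Levels in the libraries of the 2 groups did not overlap for 11 genes that were higher in exAM and 18 that were lower, 29 of 34, beside 76.4% of all tested genes (36% higher and 40.4% lower). The 28 core genes divided evenly, with 7 called higher and 7 lower and a median log2 fold change of 0.02, and the 6 fasting-type targets had 0 called higher and 5 lower with a median of -1.46, beside a median of -0.09 over all tested genes. In bulk RNA a lower level can come from fewer cells of a kind or from less RNA per cell, and the 2 cannot be told apart. With scaling by library size alone the median of all tested genes moved to -0.29 and that of the core genes to -0.18, and the share of calls that were higher fell to 34.5%, against 48% with TMM. These 34 genes then had 2 called higher and 15 lower. Of the 19 calls, 10 held in all 16 alternatives, which were Acsl4 and Etfdh higher and Acss1, Cpt1a, Acadvl, Decr1, Pdk4, Ucp2, Ucp3 and Acot1 lower. Leaving out exAM replicate 1, tAM replicate 1 or tAM replicate 2 lowered the number of calls, both among the 34 genes and over all tested genes. The core median was then -0.02, -0.02 and 0.02, and the fasting-type median -1.33, -1.53 and -1.39.

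In cells returned to the lung, Pdk4, Ucp3, Acss1, Decr1, Acsl3 and Acot1 were higher than in cultured cells by more than 1 on the log2 scale. Acsl4 and Ehhadh were lower by more than 1. Ddx3y had 55 and 59 counts in exAM and 0 in both texAM libraries, so these were not the same cells before and after transfer. Against exAM, texAM had 9 genes called higher and 9 called lower, where 43.7% of all tested genes were called, 23.2% higher and 20.5% lower. Libraries did not overlap for 15 genes that were higher in texAM and 14 that were lower, 29 of 34, beside 77.5% of all tested genes (41.8% higher and 35.6% lower). The fasting-type targets had 4 called higher and 0 lower with a median log2 fold change of 1.14, and the core genes had 5 higher and 9 lower with a median of -0.20, beside 0.11 over all tested genes. With scaling by library size alone the median of all genes was 0.33, the core median was 0.01 and 68.1% of calls were higher, against 53.1% with TMM, and 16 of the 34 genes were called higher and 3 lower. Leaving out exAM replicate 2 left 5 called higher, and leaving out texAM replicate 2 left 5 called lower. In all 16 alternatives the 5 higher calls of Acss1, Decr1, Pdk4, Ucp3 and Acot1 and the 3 lower calls of Acsl4, Etfdh and Ehhadh held. This comparison and the one of exAM with tAM share both exAM libraries, so the mirror image between them is not an independent observation.

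Cells that had passed through culture and cells that had not, both 4 months in lung, differed in none of these genes by an edgeR call. Between texAM and tAM edgeR called 0 of the 34 genes and DESeq2's Wald test also called 0, where edgeR called 1 of all tested genes, as higher (0.00688%). At an unadjusted p under 0.05, 2 genes were higher and 4 lower in texAM, 6 of 34, where 7.84% of all tested genes passed that limit. The median log2 fold change was -0.14, with 27 of the 34 genes below 0, beside 0.00 over all tested genes. Log2 fold changes ran from -0.69 for Ehhadh to 1.35 for Acsl3. Libraries did not overlap for 4 genes that were higher in texAM and 18 that were lower, 22 of 34, beside 42.1% of all tested genes (21.9% higher and 20.2% lower). Without the filter on low counts Acsl4 was called higher in texAM.

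**Figure D1:**
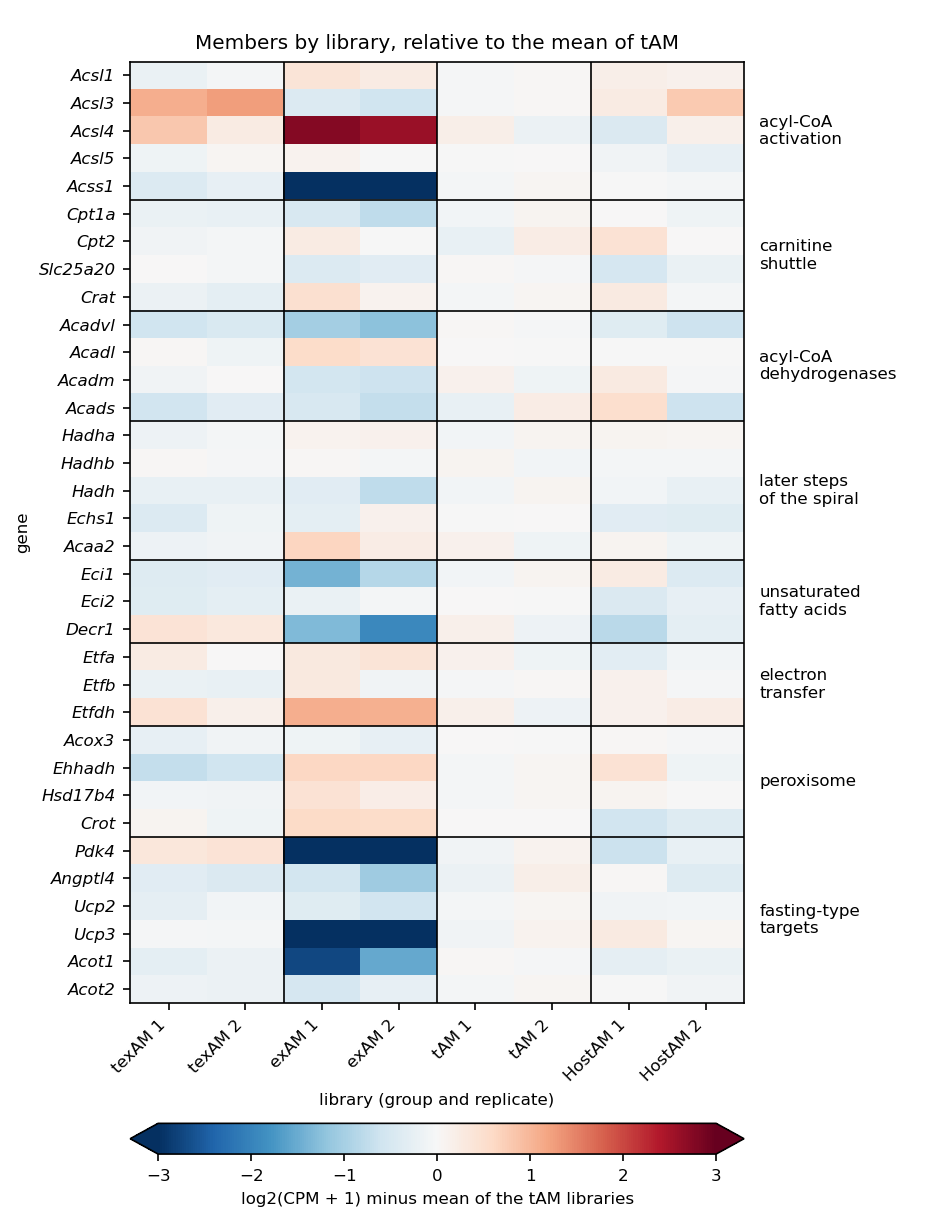
Level of each of the 34 genes in each of the 8 libraries as log2(CPM + 1) minus the mean of the 2 tAM libraries, with genes grouped by their place in the pathway and the colour scale ending at 3 in either direction. The exAM columns stand apart in Pdk4, Ucp3, Acss1, Acot1, Decr1 and Acsl4, and the texAM, tAM and HostAM columns are close to each other in most genes.

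Among the fasting-type targets the largest change was in Pdk4 (ENSMUSG00000019577, chromosome 6, 5483351 to 5496309), the kinase that shuts pyruvate dehydrogenase and so spares glucose. Pdk4 had 58.9 and 61.8 CPM in texAM, 0.343 and 0 CPM in exAM, 43.1 and 50 CPM in tAM, and 29.4 and 39.5 CPM in HostAM. The exAM libraries held 2 and 0 counts, against 267 to 564 counts in each of the 6 lung libraries, and the groups did not overlap. The level in tAM was 286 times that in exAM by the ratio of counts, with a 95% counting interval of 78.8 to 2363, and that in texAM was 371 times, with an interval of 102 to 3067. Intervals cover counting error only. Both changes were called (edgeR adjusted p = 1.3e-06 for exAM against tAM and 9.16e-07 for texAM against exAM).

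Ucp3 (ENSMUSG00000032942, chromosome 7, 100472990 to 100486432) is an uncoupling protein of the mitochondrial inner membrane, best known from skeletal muscle, and its window is printed above. Ucp3 had 103 and 102 CPM in texAM, 0.686 and 0.772 CPM in exAM, 97.7 and 115 CPM in tAM, and 128 and 110 CPM in HostAM. The exAM libraries held 4 and 5 counts, and every lung library held at least 842. Ucp3 was 143-fold lower in exAM than in tAM (log2 fold change -7.16 ± 0.25, edgeR adjusted p = 4.68e-08) and 137-fold higher in texAM than in exAM (7.10 ± 0.25, adjusted p = 6.85e-08). Its neighbour Ucp2 (ENSMUSG00000033685, chromosome 7, 100493337 to 100502020), the uncoupling protein common in immune cells, kept most of its level in culture. Ucp2 had 561 and 631 CPM in texAM, 527 and 451 CPM in exAM, 645 and 703 CPM in tAM, and 630 and 634 CPM in HostAM. Ucp2 was 0.46 ± 0.10 lower in exAM than in tAM on the log2 scale (log2 fold change -0.46, edgeR adjusted p = 0.00314), and its rise in texAM over exAM was small and called in 8 of 16 alternatives (0.28 ± 0.10, edgeR adjusted p = 0.0348, up to 0.291 over the alternatives). That call was lost without texAM replicate 2, exAM replicate 2, either tAM replicate or HostAM replicate 2.

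Acot1 and Acot2 are acyl-CoA thioesterases, of the cytosol and of the mitochondrion, that free fatty acids from coenzyme A. Acot1 (ENSMUSG00000072949, chromosome 12, 84009490 to 84018371) had 33.3 and 35.8 CPM in texAM, 5.32 and 13.4 CPM in exAM, 41.9 and 39.9 CPM in tAM, and 33.9 and 35.3 CPM in HostAM. The exAM pair was below all lung libraries and spread more widely than any other pair, with 31 and 87 counts. Acot1 was 4.32-fold lower in exAM than in tAM (log2 fold change -2.11 ± 0.34, edgeR adjusted p = 0.000709) and 3.65-fold higher in texAM than in exAM (1.87 ± 0.34, adjusted p = 0.00153). Acot2 (chromosome 12, 83987861 to 83993873) had 74.1 and 73.5 CPM in texAM, 57.8 and 69.2 CPM in exAM, 79.2 and 86.3 CPM in tAM, and 81.6 and 76.8 CPM in HostAM, and was called in neither comparison (log2 fold change -0.38 ± 0.15 in exAM against tAM, edgeR adjusted p = 0.058). The pair is close in sequence, with 17.6% of the 50-base windows of Acot1 also found in Acot2 and 24.5% of those of Acot2 in Acot1, so the split of reads between them is uncertain.

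Angptl4 (ENSMUSG00000002289, chromosome 17, 33773750 to 33781830), a secreted inhibitor of lipoprotein lipase, had 134 and 126 CPM in texAM, 115 and 80.4 CPM in exAM, 151 and 192 CPM in tAM, and 175 and 131 CPM in HostAM. Both exAM libraries lay below all lung libraries. Angptl4 was lower in exAM than in tAM (log2 fold change -0.81 ± 0.20, edgeR adjusted p = 0.00698), a call lost without exAM replicate 2 or tAM replicate 2 with an adjusted p of up to 0.0625. It did not pass the test in texAM against exAM (0.41 ± 0.20, edgeR adjusted p = 0.111). Between texAM and tAM, 0 of the 6 fasting-type targets passed an unadjusted p of 0.05 by edgeR, and DESeq2 called 0. Their log2 fold changes ran from -0.40 ± 0.19 for Angptl4 to 0.37 ± 0.25 for Pdk4.

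**Figure D2:**
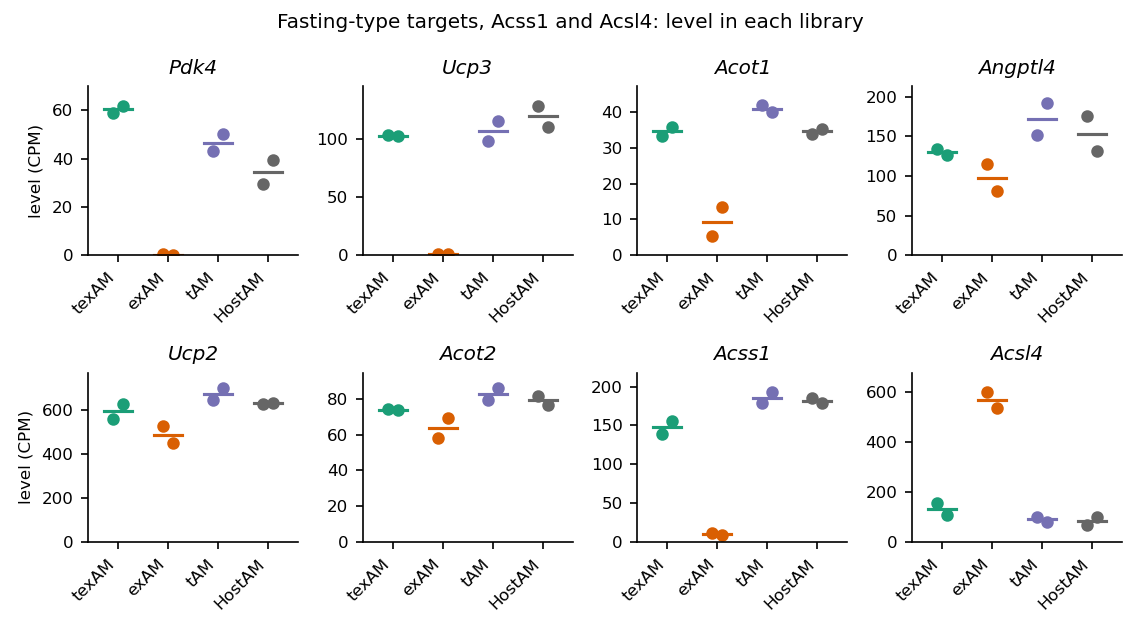
Level (CPM, linear axes from 0) of the 6 fasting-type targets and of Acss1 and Acsl4 in each library, with a line at the mean of each group of 2. Pdk4 and Ucp3 lie at or near 0 in exAM (0 to 0.772 CPM), Acot1 and Acss1 are several times lower in exAM, Ucp2 and Angptl4 are moderately lower in exAM than in tAM, Acot2 is called in neither comparison with exAM, and Acsl4 is highest in exAM at 538 and 602 CPM.

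The core genes are described in the order of the pathway. Per kilobase of the longest transcript, the highest levels in tAM among all 34 genes were those of Ucp2 (169 CPM per kb), Etfb (132), Cpt1a (119), Hsd17b4 (111) and Acox3 (104), and the lowest were Acsl3 (1.07), Decr1 (9.23) and Ehhadh (10.4). In texAM the same 5 genes held the first 5 places. In exAM Etfb (142), Hsd17b4 (140) and Ucp2 (123) led, Acsl4 followed with 108 CPM per kb, and Cpt1a had 77.3.

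Of the 5 synthetases, which activate fatty acids, 2 were called higher and 1 lower in exAM than in tAM. Of all tested genes 21.5% were called higher and 23.2% lower there. Acsl4 (ENSMUSG00000031278, chromosome X, 142317993 to 142390535), which prefers arachidonic acid and similar polyunsaturated acids, had 157 and 106 CPM in texAM, 602 and 538 CPM in exAM, 101 and 78.0 CPM in tAM, and 65.7 and 98.5 CPM in HostAM. It was 6.36-fold higher in exAM than in tAM (log2 fold change 2.67 ± 0.22, edgeR adjusted p = 9.22e-06) and lower in texAM than in exAM (-2.11 ± 0.22, adjusted p = 4.05e-05). Both texAM libraries were still above both tAM libraries, a difference that did not pass the test (0.55 ± 0.22, edgeR adjusted p = 0.596). Acss1 (ENSMUSG00000027452, chromosome 2, 150618105 to 150668500), the mitochondrial synthetase that activates acetate, went the other way. Acss1 had 139 and 156 CPM in texAM, 11.3 and 9.11 CPM in exAM, 179 and 193 CPM in tAM, and 185 and 179 CPM in HostAM. It was 18.2-fold lower in exAM than in tAM (-4.19 ± 0.15, edgeR adjusted p = 5.44e-08) and 14.5-fold higher in texAM than in exAM (3.86 ± 0.15, adjusted p = 1.14e-07), and both texAM libraries stayed below the tAM libraries without passing the test (-0.33 ± 0.12, adjusted p = 0.573).

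Acsl3 (ENSMUSG00000032883, chromosome 1, 78657825 to 78707743), a synthetase of the endoplasmic reticulum and lipid droplets, was low everywhere and highest in texAM. Acsl3 had 10.2 and 11.4 CPM in texAM, 2.92 and 2.47 CPM in exAM, 4.06 and 4.39 CPM in tAM, and 5.18 and 8.06 CPM in HostAM. The texAM libraries lay above all others, and the gene was higher in texAM than in exAM (log2 fold change 2.00 ± 0.47, edgeR adjusted p = 0.00594), a call lost without exAM replicate 2 (adjusted p up to 0.0532). Against tAM it was not called (1.35 ± 0.44, edgeR adjusted p = 0.495). Acsl1, the main long-chain synthetase of fat and liver, had 222 and 243 CPM in texAM, 335 and 301 CPM in exAM, 250 and 260 CPM in tAM, and 289 and 281 CPM in HostAM. Acsl1 was called higher in exAM than in tAM (0.32 ± 0.09, edgeR adjusted p = 0.017), which was lost under scaling by library size alone and without exAM replicate 1 or either tAM replicate (adjusted p up to 0.287), and lower in texAM than in exAM (-0.45 ± 0.09, adjusted p = 0.0029, lost under scaling by library size alone at 0.0513). Acsl5, found on mitochondria and the endoplasmic reticulum, lay between 174 and 223 CPM in all 8 libraries and was called in no comparison.

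Of the 4 genes of the carnitine shuttle, Cpt1a was called in exAM against tAM and the other 3 were not, beside 44.7% of all tested genes called. Cpt1a (ENSMUSG00000024900, chromosome 19, 3322334 to 3385733), the outer-membrane transferase that commits acyl groups to the mitochondrion, had 445 and 442 CPM in texAM, 364 and 304 CPM in exAM, 484 and 542 CPM in tAM, and 514 and 470 CPM in HostAM. The exAM libraries were below all lung libraries, with a log2 fold change of -0.62 ± 0.10 against tAM (edgeR adjusted p = 0.000839) and of 0.41 ± 0.10 in texAM over exAM (adjusted p = 0.00935, lost without exAM replicate 2 at up to 0.0929). Cpt2, the inner-membrane transferase, had 60.7 to 95.9 CPM over the 8 libraries and Slc25a20, the carrier of the inner membrane, 53.3 to 78.3 CPM. Both were called in neither comparison with exAM. Slc25a20 came closest (-0.38 ± 0.16 in exAM against tAM, edgeR adjusted p = 0.0678) and passed in 3 alternatives. Crat, which exchanges short acyl groups between carnitine and coenzyme A, had 155 and 143 CPM in texAM, 245 and 190 CPM in exAM, 169 and 184 CPM in tAM, and 212 and 168 CPM in HostAM. It was called lower in texAM than in exAM (-0.54 ± 0.15, edgeR adjusted p = 0.0138), a call lost under scaling by library size alone and without texAM replicate 2 or exAM replicate 1 (adjusted p up to 0.097).

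The acyl-CoA dehydrogenases, which take the first electrons, moved in different directions, with 1 called higher and 2 lower in exAM than in tAM. The shares of all tested genes were 21.5% higher and 23.2% lower. Acadvl, for very long chains, had 23.8 and 26.0 CPM in texAM, 17.5 and 15.0 CPM in exAM, 37.0 and 35.5 CPM in tAM, and 27.9 and 23.3 CPM in HostAM. It was 1.16 ± 0.23 lower on the log2 scale in exAM than in tAM (log2 fold change -1.16, edgeR adjusted p = 0.00241), in texAM against exAM it missed the threshold (0.62 ± 0.23, adjusted p = 0.0517), and both texAM libraries lay below both tAM libraries without a call (-0.54 ± 0.22, adjusted p = 0.615). Exons of Dvl2 on the other strand overlap 42.9% of the exon bases of Acadvl, and where counting ignores strand the 2 cannot be told apart. Acadm, for medium chains, had 79.7 and 87.0 CPM in texAM, 58.3 and 55.6 CPM in exAM, 93.7 and 78.6 CPM in tAM, and 104 and 83.8 CPM in HostAM, with the exAM pair lowest. It was called lower in exAM than in tAM (-0.60 ± 0.16, edgeR adjusted p = 0.0126, lost without exAM replicate 2 or tAM replicate 1 at up to 0.0992) and higher in texAM than in exAM (0.55 ± 0.16, adjusted p = 0.0191, lost without texAM replicate 2 or either exAM replicate at up to 0.108). Acadl, for long chains, was the opposite, with 83.6 and 74.3 CPM in texAM, 120 and 111 CPM in exAM, 82.8 and 80.8 CPM in tAM, and 81.5 and 81.2 CPM in HostAM. Acadl was higher in exAM than in tAM (0.49 ± 0.13, edgeR adjusted p = 0.0114) and lower in texAM than in exAM (-0.54 ± 0.13, adjusted p = 0.00714). Its calls were lost under scaling by library size alone, the first also without exAM replicate 1 or tAM replicate 2 (up to 0.0896) and the second without texAM replicate 2 (up to 0.0702). Acads, for short chains, varied from 22.1 to 52.2 CPM, differed by more than 2-fold between the HostAM libraries, and was called in no comparison.

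Of the 5 genes of the later steps of each turn, 0 were called higher and 1 lower in exAM than in tAM. The shares of all tested genes were 21.5% and 23.2%. Hadha and Hadhb, the subunits of the trifunctional protein that finishes the turn for long chains, lay between 319 and 390 CPM and between 57.7 and 64.9 CPM over all 8 libraries, and neither was called in any of the 6 comparisons (log2 fold change 0.12 ± 0.09 for Hadha and -0.01 ± 0.15 for Hadhb in exAM against tAM). Hadha missed the threshold in texAM against exAM (-0.22, edgeR adjusted p = 0.0623) and was called lower there in 3 of 16 alternatives, among them DESeq2. Echs1, the short-chain hydratase, had 48.3 to 70.4 CPM and was called in no comparison. Hadh, the short-chain hydroxyacyl dehydrogenase, had 65.3 and 65.5 CPM in texAM, 60.4 and 44.6 CPM in exAM, 72.3 and 80.2 CPM in tAM, and 72.3 and 64.8 CPM in HostAM. It was called lower in exAM than in tAM (-0.54 ± 0.18, edgeR adjusted p = 0.0289), a call lost without exAM replicate 2 or either tAM replicate (up to 0.232). Acaa2, the mitochondrial thiolase, had 80.6 and 84.2 CPM in texAM, 142 and 106 CPM in exAM, 99.2 and 82.4 CPM in tAM, and 95.2 and 82.6 CPM in HostAM. Acaa2 was called lower in texAM than in exAM (-0.59 ± 0.17, edgeR adjusted p = 0.0174, lost under scaling by library size alone and without either texAM replicate or exAM replicate 1 at up to 0.138) and just missed the threshold in exAM against tAM (0.45 ± 0.17, adjusted p = 0.0525), where it passed in 8 of 16 alternatives.

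Of the 3 auxiliary enzymes that unsaturated fatty acids need, 2 were called lower in exAM than in tAM, beside 23.2% of all tested genes. Decr1 (ENSMUSG00000028223, chromosome 4, 15917240 to 15945507), the mitochondrial dienoyl-CoA reductase, had 36.1 and 34.2 CPM in texAM, 10.3 and 6.33 CPM in exAM, 30.5 and 24.1 CPM in tAM, and 15.0 and 21.9 CPM in HostAM. The exAM libraries were the lowest and the texAM libraries the highest of the 8. Decr1 was lower in exAM than in tAM (log2 fold change -1.72 ± 0.32, edgeR adjusted p = 0.00161) and higher in texAM than in exAM (2.09 ± 0.32, adjusted p = 0.000519), and texAM over HostAM did not pass (0.93 ± 0.30, adjusted p = 0.218). Eci1, an isomerase that moves double bonds into place, had 22.0 and 22.7 CPM in texAM, 10.3 and 15.6 CPM in exAM, 27.3 and 30.8 CPM in tAM, and 34.7 and 21.5 CPM in HostAM. Eci1 was called lower in exAM than in tAM (-1.16 ± 0.31, edgeR adjusted p = 0.0115, lost without exAM replicate 1 or tAM replicate 2 at up to 0.101). In texAM against exAM, Eci1 missed the threshold (log2 fold change 0.78, edgeR adjusted p = 0.0614). It was called higher there in some alternatives, among them no filter on low counts and scaling by library size alone. Eci2, the peroxisomal and mitochondrial relative of Eci1, lay between 97.8 and 134 CPM and was called in no comparison.

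Electrons from the dehydrogenases pass through the electron transfer flavoprotein, of subunits Etfa and Etfb, to its oxidoreductase Etfdh in the inner membrane. Etfdh (ENSMUSG00000027809, chromosome 3, 79603788 to 79629500) had 91.7 and 75.2 CPM in texAM, 145 and 141 CPM in exAM, 75.3 and 60.1 CPM in tAM, and 74.0 and 78.2 CPM in HostAM. The exAM pair was above every lung library, with a log2 fold change of 1.07 ± 0.16 against tAM (edgeR adjusted p = 0.000358) and of -0.77 ± 0.15 in texAM over exAM (adjusted p = 0.00259). Etfa, with 84.4 to 137 CPM, and Etfb, with 101 to 144 CPM, were called in neither comparison of exAM with transplanted cells. Etfa was called higher in exAM than in HostAM (0.54 ± 0.15, edgeR adjusted p = 0.0141), a call lost under scaling by library size alone and without exAM replicate 2 or HostAM replicate 1 (up to 0.0786). The annotated gene Gm45233 lies over Etfb on the same strand and shares 67.3% of its 50-base windows, so the level of Etfb is uncertain.

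Of the 4 peroxisomal genes, 3 were called higher in exAM than in tAM and lower in texAM than in exAM. Of all tested genes, 21.5% were called higher in the first comparison and 20.5% lower in the second. Each of the 3 higher calls was lost in some of the 16 alternatives. Ehhadh, the peroxisomal bifunctional enzyme and a classical PPAR alpha target of liver, had 18.5 and 20 CPM in texAM, 48.4 and 48.2 CPM in exAM, 29.8 and 32.2 CPM in tAM, and 42.3 and 28.2 CPM in HostAM. The texAM libraries were the lowest and the exAM libraries the highest of the 8. Ehhadh was lower in texAM than in exAM (log2 fold change -1.33 ± 0.23, edgeR adjusted p = 0.00123) and only just called higher in exAM than in tAM (0.64 ± 0.23, adjusted p = 0.044). That higher call was lost in 9 of 16 alternatives, among them no filter, scaling by library size alone, the replicate block and leaving out either replicate of texAM, exAM or tAM (adjusted p up to 0.17). Its lower level in texAM than in tAM was not called (-0.69 ± 0.23, edgeR adjusted p = 0.534). Crot, which hands shortened chains to carnitine, had 54.8 and 46.9 CPM in texAM, 77.7 and 76.1 CPM in exAM, 51.5 and 51.5 CPM in tAM, and 34.4 and 39.0 CPM in HostAM. Crot was higher in exAM than in tAM (0.58 ± 0.16, edgeR adjusted p = 0.0152) and lower in texAM than in exAM (-0.60 ± 0.16, adjusted p = 0.0131). Its calls were lost under scaling by library size alone, the first also without any 1 of the exAM and tAM replicates (up to 0.0826) and the second without texAM replicate 2 or exAM replicate 1 (up to 0.108).

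Hsd17b4, the other peroxisomal bifunctional enzyme, had 283 and 275 CPM in texAM, 406 and 345 CPM in exAM, 288 and 309 CPM in tAM, and 318 and 297 CPM in HostAM. It was called higher in exAM than in tAM (log2 fold change 0.33 ± 0.10, edgeR adjusted p = 0.0199) and lower in texAM than in exAM (-0.43 ± 0.10, adjusted p = 0.00582), both lost under scaling by library size alone, and the first also without exAM replicate 1 or either tAM replicate (up to 0.275). Acox3, the oxidase for branched chains, had 347 to 422 CPM and was called in no comparison. Cpt1a, Ucp2, Etfb and Hsd17b4 reached over 1 count per base of transcript in some library. Over the 373 genes at that density the log2 ratio of counts between replicates had a median of 0.04 in texAM, 0.00 in exAM, 0.03 in tAM and 0.03 in HostAM, where the library totals differed by 0.13, -0.12, 0.10 and 0.06. Counts of such genes therefore hardly followed library size, and the part of this in the changes of these 4 genes was not tested.

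**Figure D3:**
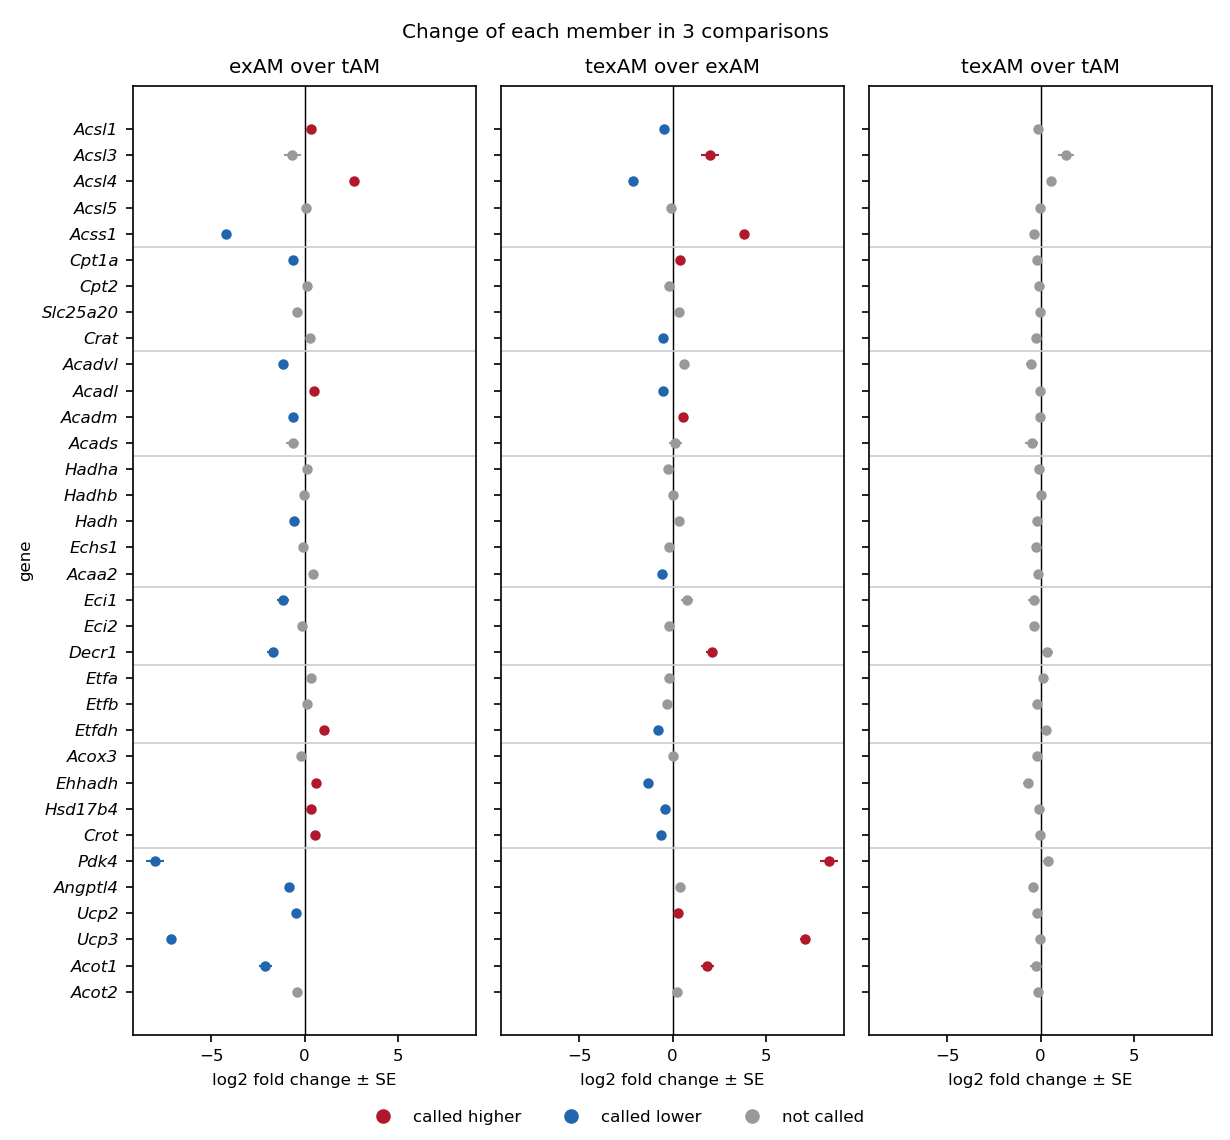
Log2 fold change with its standard error for each of the 34 genes in exAM over tAM, texAM over exAM and texAM over tAM, coloured by the edgeR call at an adjusted p under 0.05, with lines between the steps of the pathway. Pdk4 and Ucp3 lie beyond 7 in size in the first and second panels, most core genes lie within 1 of 0, and no gene is called in the third panel.

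Against HostAM, resident cells of another CD45 strain, exAM again had 7 genes called higher and 12 lower, beside 44.1% of all tested genes (20.9% higher and 23.3% lower). Libraries did not overlap for 14 genes that were higher in exAM and 15 that were lower, 29 of 34, beside 73.7% of all tested genes (35.3% higher and 38.4% lower). With scaling by library size alone there were 3 higher and 15 lower, 35.2% of all calls were higher, against 47.3% with TMM, and the median of all genes was -0.26, against -0.08. Pdk4 (211 times by counts, 95% counting interval 58.3 to 1749), Ucp3 (159-fold) and Acss1 (17.8-fold) were lower in exAM, and Acsl4 was 6.94-fold higher. Acsl3, which missed the threshold against tAM, was just called lower (log2 fold change -1.29 ± 0.47, edgeR adjusted p = 0.0441), but that call was lost in 13 of 16 alternatives, among them DESeq2 and leaving out any 1 library other than HostAM replicate 1 (up to 0.196). Crot was higher in exAM than in HostAM (1.07 ± 0.16, edgeR adjusted p = 0.00052). Of the 19 calls, 9 held in all 16 alternatives, which were Acsl4, Etfdh and Crot higher and Acss1, Cpt1a, Acadm, Pdk4, Ucp3 and Acot1 lower. Leaving out exAM replicate 1 or exAM replicate 2 lowered the number of calls, both among the 34 genes and over all tested genes. The core median was then 0.02 and 0.09, and the fasting-type median -1.13 and -1.57. The exAM libraries are the same as those above.

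Between transplanted and host cells edgeR called none of these genes. In texAM against HostAM edgeR called 0 of 34 genes, beside 0.33% of all tested genes (0.248% higher and 0.0825% lower), with 5 higher and 4 lower at an unadjusted p under 0.05, where 13.2% of all tested genes passed. DESeq2 called 1, Acsl4, as higher in texAM (edgeR log2 fold change 0.68 ± 0.22, adjusted p = 0.221). Pdk4 and Ehhadh had log2 fold changes of 0.81 ± 0.25 (edgeR adjusted p = 0.211) and -0.88 ± 0.23 (adjusted p = 0.144). Libraries did not overlap for 8 genes that were higher in texAM and 12 that were lower, 20 of 34, beside 42.8% of all tested genes (21.8% higher and 21% lower). In tAM against HostAM edgeR and DESeq2 each called 0 genes, beside 0.0413% of all tested genes by edgeR (0.0206% higher and 0.0206% lower), with 4 higher and 0 lower at an unadjusted p under 0.05, where 10% of all tested genes passed. Those 4 were Slc25a20, Acadvl, Eci2 and Crot, with log2 fold changes of 0.33 to 0.50 and edgeR adjusted p values of 0.347 to 0.493. Libraries did not overlap for 11 genes that were higher in tAM and 2 that were lower, 13 of 34, beside 37.8% of all tested genes (19.1% higher and 18.7% lower).

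The PPARs and their RXR partners were next compared, and whether they act on these genes in these cells was not tested. Ppara, the PPAR of fasted liver, had 0 counts in 7 libraries and 0.661 CPM in HostAM replicate 1, and was too low to test. Ppard, the broadly expressed PPAR, had 105 and 93.2 CPM in texAM, 104 and 127 CPM in exAM, 89.3 and 90.2 CPM in tAM, and 183 and 122 CPM in HostAM, and was not called in exAM against tAM (log2 fold change 0.37 ± 0.19, edgeR adjusted p = 0.136). Pparg, the PPAR of alveolar macrophages and fat, had 162 and 200 CPM in texAM, 242 and 235 CPM in exAM, 203 and 199 CPM in tAM, and 227 and 193 CPM in HostAM. The exAM libraries held the highest Pparg levels of the 8 libraries. Pparg was called lower in texAM than in exAM (-0.40 ± 0.12, edgeR adjusted p = 0.0235) and was not called in exAM against tAM (0.25 ± 0.12, adjusted p = 0.122). Of the RXR partners, Rxra lay between 499 and 605 CPM and was not called in exAM against tAM, and Rxrb was lower in exAM than in tAM (-1.67 ± 0.31, edgeR adjusted p = 0.00158), with 14.9 and 16.2 CPM in exAM against 35.6 and 63.3 CPM in tAM.

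Of 30 listed receptors and coregulators 24 were tested, and 3 were called higher and 10 lower in exAM than in tAM, where 21.5% of all tested genes were higher and 23.2% lower. In texAM against exAM 11 were called higher and 5 lower, where 23.2% and 20.5% of all tested genes were. In texAM against tAM edgeR called 0, with 4 at an unadjusted p under 0.05, which 7.84% of all tested genes passed, and DESeq2 called 1, as lower. The median log2 fold change was -0.14 in exAM against tAM, beside -0.09 over all genes. Oestrogen-related receptors are known to drive oxidation genes together with PGC-1 proteins, and of the 3 listed, Esrra and Esrrg were called lower in exAM than in tAM and Esrrb had 0 counts in all 8 libraries. Esrra had 21.4 and 31.0 CPM in texAM, 8.23 and 5.71 CPM in exAM, 19.4 and 27.7 CPM in tAM, and 22.4 and 16.5 CPM in HostAM (exAM over tAM -1.76 ± 0.35, edgeR adjusted p = 0.00239). Esrrg had 11.5 and 6.39 CPM in texAM, 0 and 0.309 CPM in exAM, 9.87 and 8.53 CPM in tAM, and 3.20 and 2.30 CPM in HostAM, and the ratio of counts of tAM to exAM was 56.7 with a 95% counting interval of 15.4 to 473. Lpin1, a coactivator of PGC-1 alpha and PPAR alpha, was 2.3-fold lower in exAM than in tAM (-1.20 ± 0.10, edgeR adjusted p = 8.25e-06). The corepressor Nrip1 was lower as well (-1.14 ± 0.13, edgeR adjusted p = 8.28e-05), and the corepressor Ncor1 was higher (0.40 ± 0.08, edgeR adjusted p = 0.00244). Of the PGC-1 family, Ppargc1b had 30.3 to 45.7 CPM and was not called, and Ppargc1a did not exceed 1.71 CPM in any library. Their relative Pprc1 had 136 and 163 CPM in texAM and 87.5 and 81.4 CPM in exAM. In tAM it had 116 and 158 CPM, and in HostAM 171 and 136 CPM.

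**Figure D4:**
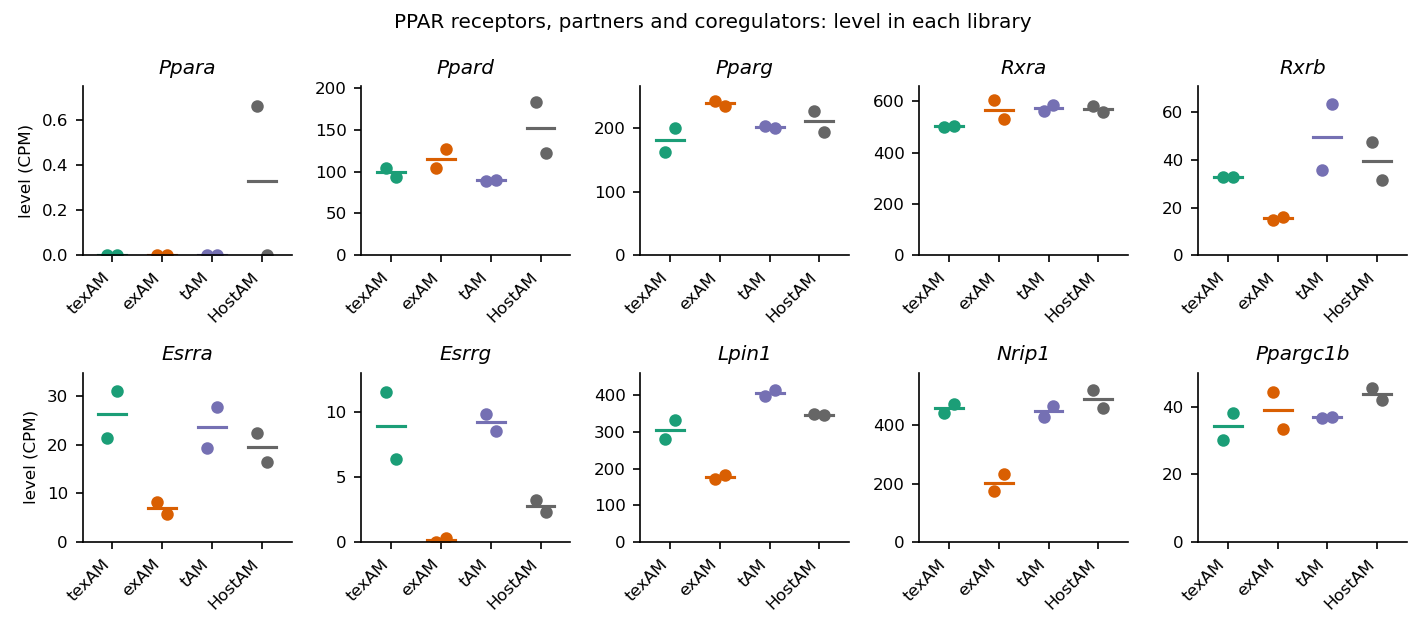
Level (CPM, linear axes from 0) of Ppara, Ppard, Pparg, Rxra, Rxrb, Esrra, Esrrg, Lpin1, Nrip1 and Ppargc1b in each library, with a line at the mean of each group of 2. Ppara is at 0 in 7 of 8 libraries, Pparg is highest in exAM (235 and 242 CPM), and Rxrb, Esrra, Esrrg, Lpin1 and Nrip1 are lowest in exAM.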

How the data were processed

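RNA sequencing counts of 8 libraries, 2 per group, were used as deposited. Per the labels' protocols, complementary DNA was amplified from 2 ng of RNA. The authors' whole-number read counts per gene were made with Bowtie, HTSeq 0.6.1 and R 3.3 on mm10 (GRCm38), per the submitters' processing notes; how duplicates were treated and which annotation was used are not given in the sources used here. Counts were tested on the whole table in R 4.3.3 with edgeR 4.0.16 (limma 3.58.1): filterByExpr with a minimum of 10 counts left 14537 genes, libraries were scaled by TMM, and 1 quasi-likelihood model with a coefficient per group and 4 residual degrees of freedom gave each comparison, with Benjamini-Hochberg adjustment and a threshold of 0.05. The common biological coefficient of variation was 0.22. Each standard error is the log2 fold change divided by the square root of F. The fit was tested on simulated data for exAM against tAM and texAM against tAM. It recovered 52.8% and 51% of 2-fold changes and 92% and 93.5% of 8-fold changes. Of its calls 3.66% and 4.32% were false. The simulations changed far fewer genes than were called in exAM against tAM here. Library totals ranged from 6546272 to 9154128 counts, which sets the precision of low genes. Gene positions and lengths come from GENCODE M21, in which 32620 identifiers (87.4%) were found.

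Alternatives were other scalings and filters, a replicate block, fits on the 4 libraries compared, DESeq2 1.42.0 and leaving out each library. The 34 genes and the gene lists were chosen with earlier results of these data known. All 34 genes are named, as may be any gene of the list of receptors and coregulators, and genes of the other 4 lists were taken from the 2 largest called changes in each direction with at least 10 CPM in the higher group. Some genes that the rule allows are not reported here. Over all tested genes, correlations of same-numbered deviations between groups ran from -0.0787 to 0.0111. A shared effect on some genes could leave such correlations near 0, so whether replicate numbers pair the libraries was not settled.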

Additional observations from a re-analysis of the deposited data

How the results depend on the processing

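In all 16 alternatives the called log2 fold changes of the 34 genes kept their sign, while several that were not called changed sign. With scaling by library size alone, 2 of the 34 genes were called higher in exAM than in tAM, 16 higher and 3 lower in texAM than in exAM, and 3 higher in exAM than in HostAM. Without a filter on low counts, 1 was called higher in texAM than in tAM, and 1 higher and 1 lower in texAM than in HostAM, where DESeq2 called 1 higher. Over all genes, texAM against tAM had 1 call, and 238 without a filter, 0 with the replicate block, 2 with only the 4 libraries compared and 73 by DESeq2. For texAM against HostAM the 48 calls became 694 without a filter, 106 with a minimum of 50 counts, 29 with the replicate block and 382 by DESeq2. For tAM against HostAM the 6 calls became 425 without a filter, 44 with a minimum of 50 counts and 187 by DESeq2. The cause of these differences was not tested.

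Leaving out 1 library at a time gave 2 to 8 of the 34 genes higher in exAM than in tAM, 5 to 11 higher and 5 to 10 lower in texAM than in exAM, and 4 to 6 higher and 7 to 11 lower in exAM than in HostAM. Over all genes it gave 0 to 5 calls in texAM against tAM, 1 to 90 in texAM against HostAM and 0 to 26 in tAM against HostAM. Where 1 library of a group remained, it was assumed to vary like the other groups. With the replicate block, 7 genes were higher and 12 lower in exAM than in tAM, and 8 and 9 in texAM than in exAM. Over all genes the block gave 6082 and 5932 calls in these comparisons. With 2 libraries per group, a missed threshold does not show that levels were alike, and exAM differs from the lung groups in sorting as well as in culture.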

Other observations

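Neighbouring genes of lipid and fuel metabolism were read from lists chosen with earlier results of these data known. Of all tested genes, 21.5% were called higher and 23.2% lower in exAM than in tAM, and 23.2% higher and 20.5% lower in texAM than in exAM. Of 44 tested further oxidation genes, 11 were called higher and 8 lower in exAM than in tAM (median log2 fold change 0.17), and 4 higher and 14 lower in texAM than in exAM (-0.30). Ivd, a dehydrogenase of leucine breakdown, had 31.4 and 40 CPM in texAM, 218 and 176 CPM in exAM, 40 and 39.1 CPM in tAM, and 42.8 and 47.3 CPM in HostAM (exAM over tAM 2.31 ± 0.17, edgeR adjusted p = 4.74e-06), and Acadsb moved the same way (1.73 ± 0.16, adjusted p = 1.47e-05). The peroxisomal thiolase Acaa1b was lower in exAM than in tAM (-3.40 ± 0.30, edgeR adjusted p = 1.31e-05).

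Of 30 tested further PPAR targets, 13 were called higher and 10 lower in exAM than in tAM (median 0.03), and 10 higher and 14 lower in texAM than in exAM (-0.41). The list held large changes in both directions. Cd36, a fatty acid receptor and a PPAR gamma target, had 254 and 252 CPM in texAM, 828 and 670 CPM in exAM, 240 and 243 CPM in tAM, and 229 and 271 CPM in HostAM (exAM over tAM 1.63 ± 0.12, edgeR adjusted p = 3.39e-06). Hilpda, which inhibits lipid droplet breakdown, was higher in exAM than in tAM as well (2.59 ± 0.41, edgeR adjusted p = 0.000605). Cidec, a lipid droplet protein and also a PPAR gamma target, had 196 and 225 CPM in texAM, 4.97 and 4.17 CPM in exAM, 257 and 288 CPM in tAM, and 274 and 237 CPM in HostAM (-5.90 ± 0.17, edgeR adjusted p = 4.54e-08). Gpd1, glycerol-3-phosphate dehydrogenase, was 163-fold lower in exAM than in tAM (-7.35 ± 0.33, edgeR adjusted p = 1.95e-07).

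Of 20 genes of ketone and pyruvate metabolism, 11 were called higher and 3 lower in exAM than in tAM (median 0.74), and 2 higher and 10 lower in texAM than in exAM (-0.63). Bdh1, which interconverts ketone bodies, had 12.1 and 15.1 CPM in texAM, 77 and 80.8 CPM in exAM, 11.5 and 11.5 CPM in tAM, and 10.8 and 12.3 CPM in HostAM (exAM over tAM 2.77 ± 0.23, edgeR adjusted p = 7.75e-06). Of 19 tested genes of fatty acid synthesis, 7 were called higher and 3 lower in exAM than in tAM (median -0.33), and 5 higher and 5 lower in texAM than in exAM (0.05). The desaturases differed, Fads1 being higher (1.76 ± 0.17, edgeR adjusted p = 2.4e-05) and Scd1 lower in exAM than in tAM (-2.56 ± 0.22, adjusted p = 1.04e-05). In texAM against tAM edgeR called 0 genes of each of these lists, where 6, 5, 1 and 2 genes of the oxidation, PPAR target, ketone and synthesis lists had an unadjusted p under 0.05, beside 7.84% of all tested genes, and DESeq2 called 0, 1, 0 and 0.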
